A study of Mus musculus with 12 samples.

Results

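The lesioned striatum of hemiparkinsonian mice was compared after chronic and after acute L-DOPA, with 3 RNA-seq libraries in each group and thus 6 of the 12 libraries of the series. A library belongs to the comparison when its label names the lesioned side, and every gene of the table was considered, represented by the transcript with the highest mean level. All mice were female C57BL/6J and had received a unilateral injection of the dopamine neuron toxin 6-OHDA into the right medial forebrain bundle, after desipramine to protect noradrenergic neurons, followed by 2 weeks of recovery. Acute mice were given L-DOPA once and chronic mice were given it daily for 9 days, each time at 10 mg/kg with benserazide at 7.5 mg/kg, an inhibitor that limits conversion of L-DOPA outside the brain. Striatal punches were taken 1 h after the last injection in both groups, so that the comparison sets the response to the ninth injection against the response to the first and also contains whatever changed between the injections. The unlesioned striatum of acute and chronic mice, again with 3 libraries each, served as the background for repeated injection. Mice without L-DOPA were not analysed here, so a level after acute L-DOPA is a response and not a resting level.

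The striatum is built mostly of medium spiny neurons (MSNs), which carry either dopamine D1 receptors (D1Rs) and the peptides dynorphin and substance P, or dopamine D2 receptors (D2Rs) and enkephalin. When the dopamine input is lost, D1R-bearing MSNs become hypersensitive, and L-DOPA then drives cAMP and MAP kinase signaling and a burst of immediate early gene transcription. Repeated treatment can lower a part of such a response (desensitization) and raise another (priming), and in this model it is accompanied by involuntary movements. Chaperones of the cytosol and of the endoplasmic reticulum (ER) mark protein-folding stress, whereas markers of oligodendrocytes, microglia and astrocytes follow the glial part of the tissue.

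The reads of the 6 lesioned libraries, summed over 1 transcript per gene, amounted to between 18373868 and 29051358 counts. Gene levels below are in CPM, meaning reads per gene after scaling to equal library size. They are not scaled by transcript length and are compared here only between libraries. Markers of MSNs were abundant in all 6 libraries, with Penk, the enkephalin precursor, between 3008 and 4192 CPM and Ppp1r1b, which encodes DARPP-32, between 1749 and 2481 CPM. Some libraries stood apart. In acute lesioned library 1 the summed level of oligodendrocyte markers was 19594 CPM, against 14906 and 11846 CPM in the other acute lesioned libraries. In chronic lesioned library 2 the summed level of oligodendrocyte markers was 11776 CPM, against 6586 and 7672 CPM in the other chronic lesioned libraries, and in chronic unlesioned library 2 the choroid plexus markers summed to 2364 CPM, against at most 71.3 CPM in every other library. Many of the results are therefore also given without single libraries. The series labels count 12 mice for 12 libraries, whereas the study describes the unlesioned side as an internal control of each mouse, and p-values measure the spread between these libraries.

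After chronic compared with acute L-DOPA, 2590 of 19790 genes tested were higher in the lesioned striatum (13.1% of those tested) and 2324 were lower (11.7%), at a Benjamini-Hochberg adjusted p under 0.05 in edgeR's quasi-likelihood test, which gives every adjusted p below. With a change of at least 1.5 fold, 1073 genes were higher (5.42%) and 1146 were lower (5.79%). Of the 4914 genes called, 4561 had a mean of at least 1 CPM and no overlap of the groups. A lack of overlap below therefore adds little to a call. For each list count of the lesioned striatum below, the shares over all genes are 13.1% higher and 11.7% lower. In the unlesioned striatum the same comparison called 218 of 20290 genes higher (1.07%) and 326 lower (1.61%). The number in the lesioned striatum fell from 4914 to 3005, 2819 and 2715 without acute library 1, acute library 2 and chronic library 1, and the number of genes at least 1.5 fold lower was 657 without chronic library 1 and 1818 without chronic library 2. The unlesioned number depended even more on single libraries, running from 12 without acute unlesioned library 2 to 2247 without chronic unlesioned library 2, with 13, 66, 71 and 21 without acute 1, acute 3, chronic 1 and chronic 3 of that side. At an unadjusted p under 0.05, 4435 genes differed in the unlesioned striatum.

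A gene was taken to respond differently on the lesioned side only when the difference between both changes was itself past the threshold. Of 20664 genes, 744 (3.60%) had a more positive and 309 (1.495%) a more negative change on the lesioned than on the unlesioned side. With the replicate number as a block, which sets each lesioned library against the unlesioned library of the same number, 1534 genes had a more positive and 1221 a more negative change. The total of 1053 was 695 without acute unlesioned library 3 and 1637 without chronic lesioned library 2. Of the 4914 genes called in the lesioned striatum, 361 were also called in the unlesioned striatum, which is 7.35% of the former and 66.4% of the 544 genes called in the latter, and 351 of them had the same direction.

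**Figure D1:**
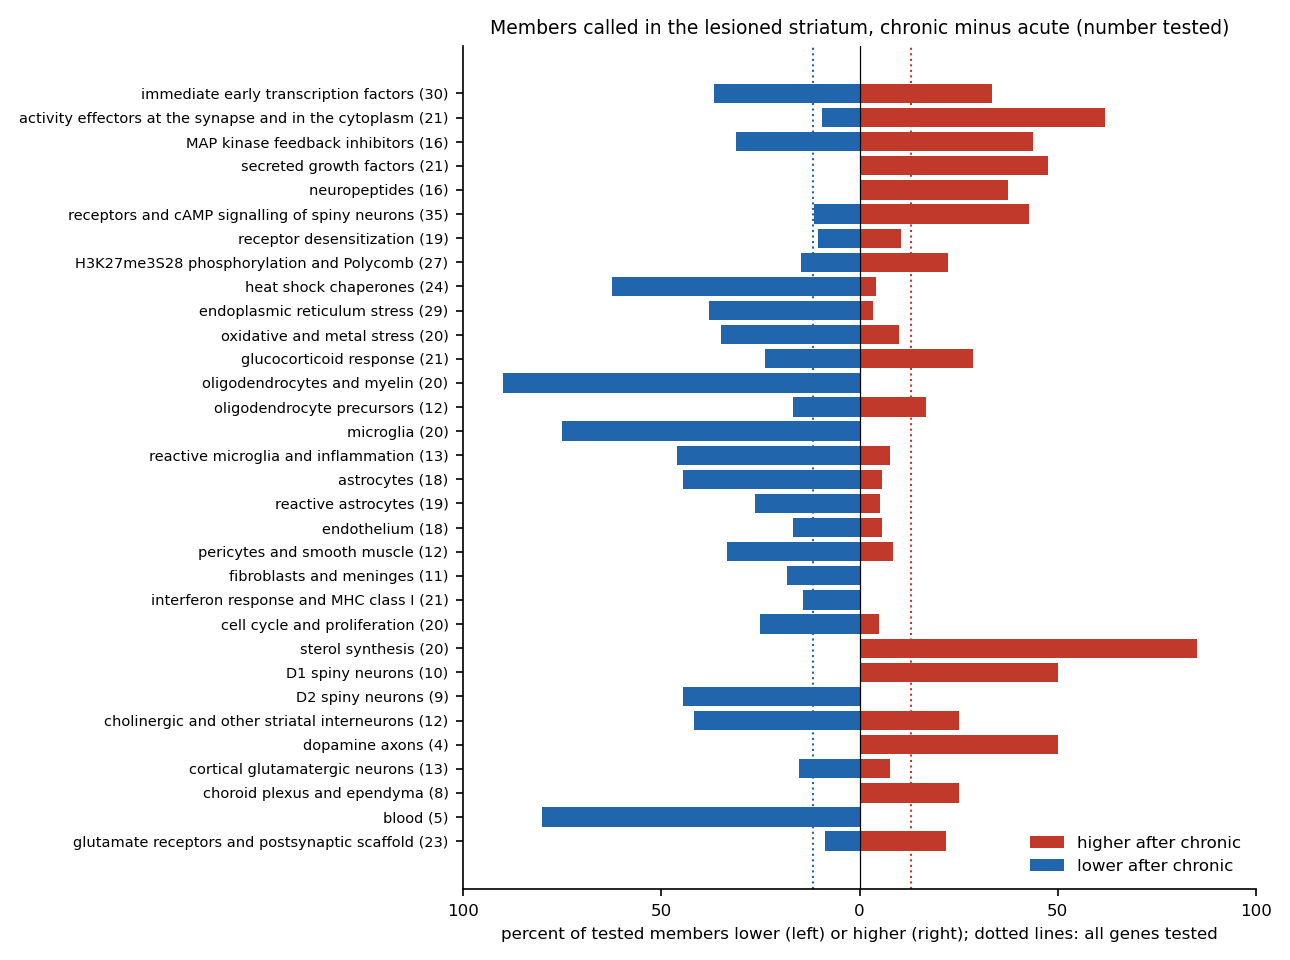
Share of the tested members of each gene list that were higher (right, red) or lower (left, blue) in chronic than in acute lesioned libraries, with the number tested in brackets and an adjusted p under 0.05 as the threshold. The dotted lines give the shares over all genes, 13.1% higher and 11.7% lower. The bars reach farthest to the right for sterol synthesis and activity effectors and farthest to the left for oligodendrocytes, blood and microglia.

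Changes were ranked among called genes with at least 1 CPM on average, no overlap of the groups and no clone, predicted or Rik name. Among those with reads in every acute library the largest rise was that of Inhba. Inhba encodes the subunit of activin A, a secreted member of the TGF-beta family. It stood at 8.47, 6.96 and 6.20 CPM after acute and at 315, 330.4 and 257 CPM after chronic L-DOPA. Every chronic library lay far above every acute library. The log2 fold change was 5.37 ± 0.15 (SE, adjusted p = 5.12e-08), whereas in the unlesioned striatum Inhba stood at 4.87 ± 0.606 CPM after acute and 5.56 ± 0.959 CPM after chronic L-DOPA (SD, n = 3). Its transcript lies at chr13:16106308-16119044 on the plus strand of mm9, and a transcript of B230303A05Rik overlaps it on the other strand. Follistatin (Fst), which binds and neutralizes activin, rose with it, from 4.94, 5.36 and 6.11 CPM to 43.1, 45.6 and 44.0 CPM (3.02 ± 0.10, adjusted p = 2.11e-07).

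Sstr2, a Gi-coupled receptor for somatostatin, was at 6.42, 5.03 and 6.38 CPM after acute L-DOPA and at 136, 140.0 and 119.7 CPM after chronic L-DOPA (chr11:113480656-113487319, mm9). The log2 fold change was 4.46 ± 0.12 (adjusted p = 4.03e-08). Pdyn, the dynorphin precursor of D1R-bearing MSNs, was at 82.5, 85.0 and 90.0 CPM after acute and at 933, 861 and 860.4 CPM after chronic L-DOPA (3.37 ± 0.08, adjusted p = 2.95e-08; chr2:129512301-129525674, mm9). After a single dose Pdyn in the lesioned striatum lay below the 146 ± 8.10 CPM of the acute unlesioned striatum (SD, n = 3), and after chronic L-DOPA far above the 156 ± 34.7 CPM of the chronic unlesioned striatum. The changes of Inhba, Sstr2, Pdyn and Fst all differed between the sides, by 5.16, 4.20, 3.27 and 2.82 on the log2 scale (highest adjusted p = 7.47e-05).

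A few further genes were read almost solely after chronic L-DOPA. Serpinb2, an inhibitor of plasminogen activators, had 0, 1 and 2 reads in the acute and 236, 689 and 211 reads in the chronic lesioned libraries. Taken against the level of 3 reads in the shallowest acute library, it was at least 105-fold higher, or 66.9-fold without chronic library 2, and Cpb1, a carboxypeptidase, and Vmn1r43, a vomeronasal receptor gene, were at least 15.4-fold and 13.4-fold higher on the same basis. Serpinb2 remained below 1 CPM in the unlesioned striatum after both treatments, and its difference between the sides passed the threshold only with the replicate block (adjusted p = 0.18 without and 0.0256 with it). Also among the 15 largest rises were Krt73, Snx31, Pnmt, Timp1, Gal, Areg, Epha2, Rasl11a and Pim1, with log2 fold changes between 3.12 for the kinase gene Pim1 and 3.95 for Krt73. Areg, a ligand of the EGF receptor, rose from between 3.20 and 3.75 CPM to between 27.6 and 48.5 CPM, and the ephrin receptor Epha2 from between 5.36 and 6.24 CPM to between 50.6 and 66.6 CPM. Overlapping transcripts of other genes limit the reading of Sstr2 (Slc39a11, other strand), Timp1 (Syn1, other strand) and Serpinb2 (a transcript assigned to Polr2a, same strand), since the strand setting of the counting is not given in the sources used here.

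**Figure D2:**
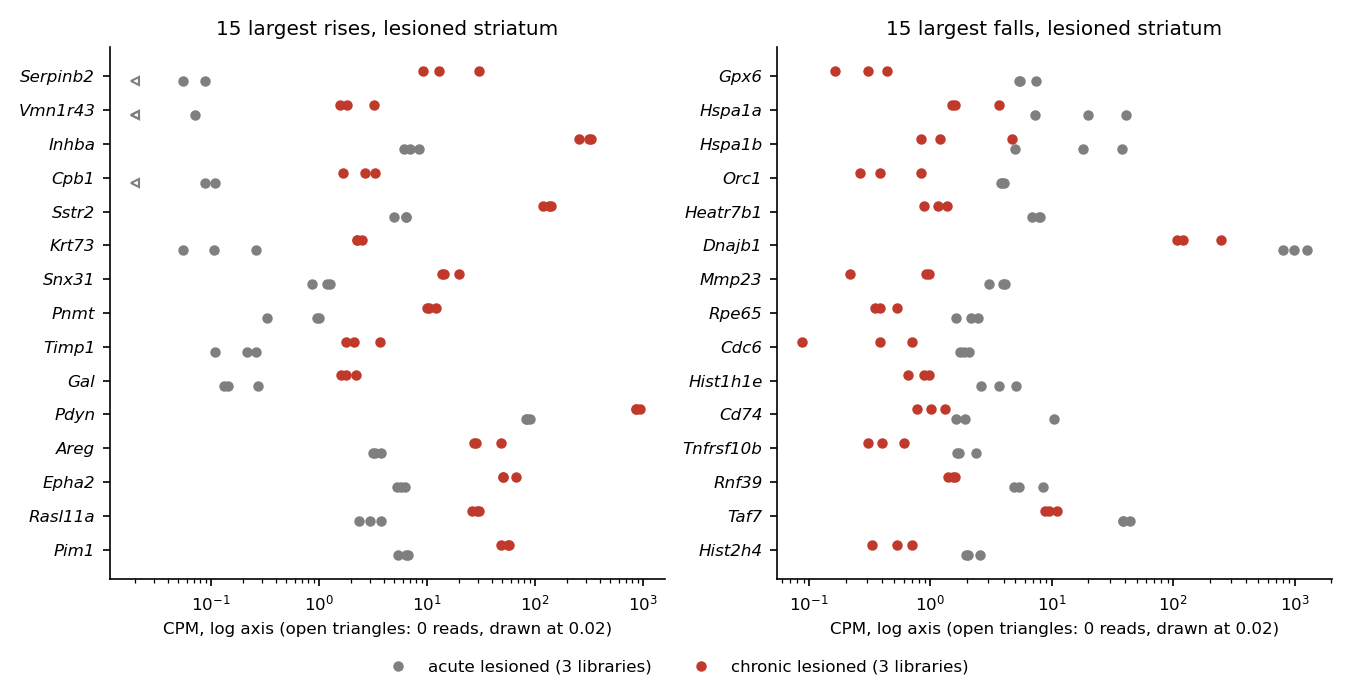
Level of each of the 15 genes with the largest rise (left) and the largest fall (right) in the 3 acute (grey) and 3 chronic (red) lesioned libraries, in CPM on a log axis, with open triangles for libraries without a read. Genes were admitted only where the 2 groups do not overlap, so that the chronic points lie to the right of the acute points on the left side and to the left of them on the right side.

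The cAMP response element TGACGTCA, the site bound by CREB, was searched for, with the AP-1 element TGACTCA on both strands, in promoter windows that run from 250 bases before to 50 bases after the RefSeq gene start (GRCm38.p6, whereas the counts refer to mm9). The cAMP response element reads the same on both strands. The cAMP response element was found in 1.79% of all 32851 windows, in 3.51% of the 10726 tested genes with a window, in 4.5% of 1556 genes that were higher and in 3.29% of 1366 genes that were lower. Among the 15 largest rises 3 of the 13 with a window hold it, Sstr2, Areg and Epha2, and their windows are shown for that reason, with the element in capitals. A match is a description of the letters and not evidence of binding.
Sstr2, chr11:113619077-113619376, plus strand: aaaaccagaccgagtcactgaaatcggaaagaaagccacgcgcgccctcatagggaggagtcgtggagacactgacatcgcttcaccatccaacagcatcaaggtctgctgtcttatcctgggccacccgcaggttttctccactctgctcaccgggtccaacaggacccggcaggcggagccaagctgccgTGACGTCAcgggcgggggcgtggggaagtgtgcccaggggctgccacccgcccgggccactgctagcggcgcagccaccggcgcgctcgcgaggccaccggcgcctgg
Areg, chr5:91139349-91139648, plus strand: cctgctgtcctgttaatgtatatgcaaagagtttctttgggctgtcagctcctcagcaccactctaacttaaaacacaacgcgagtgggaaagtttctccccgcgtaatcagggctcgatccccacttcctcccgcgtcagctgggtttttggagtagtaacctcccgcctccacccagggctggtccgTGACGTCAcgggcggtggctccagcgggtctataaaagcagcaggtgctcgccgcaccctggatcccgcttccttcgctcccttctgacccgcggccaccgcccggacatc
Epha2, chr4:141300971-141301270, plus strand: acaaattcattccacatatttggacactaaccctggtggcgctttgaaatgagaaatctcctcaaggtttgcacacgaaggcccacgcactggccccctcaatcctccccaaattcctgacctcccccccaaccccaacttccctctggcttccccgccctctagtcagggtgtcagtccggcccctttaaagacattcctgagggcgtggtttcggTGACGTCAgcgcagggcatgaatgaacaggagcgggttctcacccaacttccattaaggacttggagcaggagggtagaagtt
In these windows the element begins 58, 61 and 33 bases before the gene start. Of genes at least 1.5 fold higher 28 of 594 with a window hold the element (4.71%), Scg2, Th and Dusp1 among them, and of genes at least 1.5 fold lower 19 of 608 (3.12%), among them Gpr6, Maff and Ppp1r15a. The AP-1 element TGACTCA was in none of the 13 windows and in 5.2% of all windows. Of the 15 largest falls 9 have a window, and neither element was found in any of them.

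Gpx6, a glutathione peroxidase gene, had the largest fall among genes with a mean of at least 1 CPM, leaving aside clone and predicted names. It was at 5.37, 7.46 and 5.50 CPM after acute and at 0.165, 0.439 and 0.308 CPM after chronic L-DOPA (-4.26 ± 0.29, adjusted p = 1.31e-05). Its level in the unlesioned striatum was 7.33 ± 1.18 CPM after acute and 3.41 ± 1.70 CPM after chronic L-DOPA (SD, n = 3), and the difference between the sides was -3.15 (adjusted p = 0.002). Orc1, a subunit of the origin recognition complex, was at 4.04, 3.87 and 3.83 CPM after acute and at 0.384, 0.835 and 0.264 CPM after chronic L-DOPA (-2.95 ± 0.32, adjusted p = 0.000269), against 0.350 ± 0.180 CPM in the acute unlesioned striatum, and Cdc6, which loads the replicative helicase, fell by 2.26 on the log2 scale. Taf7, a subunit of the general transcription factor TFIID, was at 44.4, 38.3 and 38.5 CPM and then at 9.43, 10.99 and 8.75 CPM (-2.05 ± 0.12, adjusted p = 4.37e-06), close to the 9.36 ± 0.781 CPM of the acute unlesioned striatum. The difference between the sides was past the threshold for Taf7 (-1.80, adjusted p = 1.44e-05) and Orc1 (-2.92, adjusted p = 0.0148), the latter not without chronic unlesioned library 1 (adjusted p = 0.0586), and for Cdc6 it was -1.82 (adjusted p = 0.205).

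Of the other large falls, Heatr7b1 was at 6.85 to 8.003 CPM after acute and 0.879 to 1.36 CPM after chronic L-DOPA, with transcripts of Hjurp and 6430706D22Rik on the opposite strand. Rpe65, Mmp23, Tnfrsf10b, Rnf39 and the histone genes Hist1h1e and Hist2h4 had log2 fold changes between -2.34 and -2.05. In the unlesioned striatum Mmp23 (-2.61), Hist1h1e (-1.87), Hist2h4 (-1.39) and Rpe65 (-1.02) were also called, each not without some single libraries. Only Rnf39 differed between the sides without the block (adjusted p = 0.0156, and 0.053 without chronic unlesioned library 3). The others had adjusted p from 0.0648 to 0.845, and with the block Rpe65 and Tnfrsf10b were called (0.0247 and 0.0251). The invariant chain Cd74 was called with -2.14 but rested on acute library 3, where it stood at 10.3 CPM against 1.62 and 1.93 CPM in the other acute libraries, and the call was lost without acute library 3, chronic library 1 or chronic library 3 (highest adjusted p = 0.144). The remaining large falls, Dnajb1, Hspa1a and Hspa1b, are described with the heat shock genes.

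Immediate early genes (IEGs) encode transcription factors that are switched on within minutes of a stimulus. Of 30 such genes tested, 10 were higher and 11 were lower after chronic L-DOPA, with a median log2 fold change of -0.16 against -0.0107 over all genes. Fosb, whose product accumulates during repeated dopamine stimulation, was at 1013, 1089.8 and 1142 CPM after acute and at 692, 656 and 698 CPM after chronic L-DOPA (-0.67 ± 0.07, adjusted p = 0.000304; chr7:19888045-19895394, mm9). The groups did not overlap, and the chronic level still lay far above the 22.1 ± 1.71 CPM of the chronic unlesioned striatum (SD, n = 3). Egr1 fell from 2698, 2739 and 2605 CPM to 1704, 1439 and 1565 CPM (-0.77 ± 0.08, adjusted p = 0.000227), and Fos from 778, 706 and 646 CPM to 513, 336 and 471 CPM (-0.69 ± 0.14, adjusted p = 0.00709). The largest falls of the list were those of Atf3, a stress-inducible factor, from 77.6, 81.4 and 53.6 CPM to 31.7, 20.3 and 35.7 CPM (-1.28 ± 0.20, adjusted p = 0.00214), and of the activity-dependent factor Npas4, from 142, 147 and 137 CPM to 73.8, 47.9 and 80.6 CPM (-1.08 ± 0.15, adjusted p = 0.00124).

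Other IEGs went the opposite way. Nr4a2, an orphan nuclear receptor also called Nurr1, was at 39.6, 26.3 and 24.4 CPM after acute and at 191, 124 and 136 CPM after chronic L-DOPA (2.31 ± 0.20, adjusted p = 7.93e-05; chr2:56959241-56967449, mm9), without overlap. The related Nr4a3 was at 394, 374 and 369.8 CPM and then at 605, 594 and 508 CPM (0.58 ± 0.09, adjusted p = 0.0016), while for Nr4a1 levels of 1032, 1018 and 1014 CPM after acute and 940.3, 794 and 991 CPM after chronic L-DOPA gave a log2 value of -0.17 ± 0.09 (adjusted p = 0.181). Of the 3 receptors of this family, Nr4a2 had the largest change. Ier3 rose by 1.79 ± 0.27 (adjusted p = 0.00159) and Klf10, a repressor induced by TGF-beta family signals, by 1.30 ± 0.15 (adjusted p = 0.000408). Fosl2, Junb and Egr2 did not pass the test, with -0.15 ± 0.15, 0.07 ± 0.09 and -0.23 ± 0.10.

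In the unlesioned striatum 10 of the 30 IEGs were lower and 0 were higher after chronic L-DOPA, against the 1.61% and 1.07% of all genes. The lower count was 4, 3, 5, 4 and 3 without acute 1, acute 2, acute 3, chronic 1 and chronic 3 of that side and 14 without chronic 2. Fosb there was -0.95 (adjusted p = 0.00177), Fos -0.92 (adjusted p = 0.00728), Egr1 -0.44 (adjusted p = 0.0318) and Atf3 -1.36 (adjusted p = 0.0265). Fosb and Fos were called without each unlesioned library in turn, whereas Egr1 and Atf3 were called only with all of them or without chronic unlesioned library 2 (highest adjusted p = 0.13 and 0.0998). For none of Fosb, Fos, Egr1, Npas4 and Atf3 did the fall differ between the sides without the block (adjusted p from 0.127 to 0.934), and with the block it did for Fosb alone (0.29 higher in the lesioned striatum, adjusted p = 0.0356). In 10 of the 30 genes the change was more positive in the lesioned striatum, among them Nr4a3 (by 0.91, adjusted p = 0.000543), Klf10 (1.57, adjusted p = 0.000823), Junb (0.67, adjusted p = 0.012) and Fosl2 (0.89, adjusted p = 0.0172, and 0.0509 without acute unlesioned library 2). For Nr4a2 the difference was 2.44 with an adjusted p of 0.0682, and of 0.00605 with the block. In 0 of the 30 genes was it more negative, or in 1 without chronic unlesioned library 3.

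Activity effectors, the IEG products that act at the synapse and in the cytoplasm, leaned to one side: of 21 tested, 13 were higher and 2 lower, with a median log2 fold change of 0.79. The 2 lower genes were Arc, which shapes AMPA receptor trafficking and was at 2792, 2351 and 2266 CPM after acute and 1778, 1658 and 1848 CPM after chronic L-DOPA (-0.49 ± 0.10, adjusted p = 0.00599), and Egr1, which stands in both lists. Pim1, a kinase induced by growth factors, rose from 6.70, 5.47 and 6.42 CPM to 56.1, 58.0 and 48.7 CPM (3.12 ± 0.12, adjusted p = 3.06e-07). Neuronal pentraxin 2 (Nptx2), which clusters AMPA receptors, was at 78.1, 59.9 and 67.6 CPM and then at 207, 225 and 213 CPM (1.65 ± 0.10, adjusted p = 6.56e-06). Sik1, a CREB-induced kinase that restrains CREB coactivators, rose from between 74.9 and 85.1 CPM to between 188 and 211 CPM (1.34 ± 0.08), Plk3 by 1.65 ± 0.15, and Amigo3, which overlaps Rnf123 on the other strand, by 2.86 ± 0.13. The prostaglandin synthase gene Ptgs2 rose from 20.0, 39.8 and 21.7 CPM to 98.1, 71.2 and 93.1 CPM (1.70 ± 0.23, adjusted p = 0.000886). The change was more positive on the lesioned than on the unlesioned side for 11 of the 21 genes and more negative for 0, or for 1 without chronic unlesioned library 3.

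**Figure D3:**
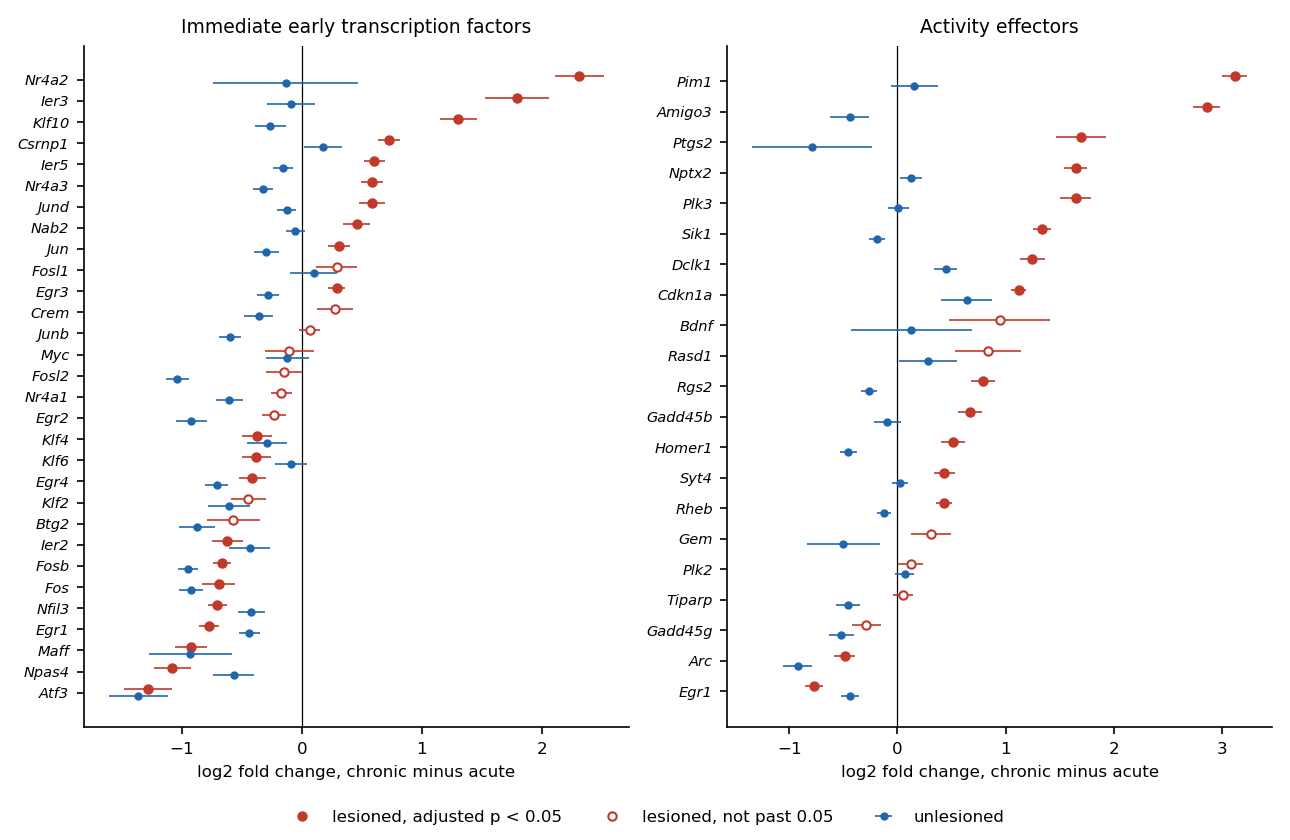
Log2 fold change from acute to chronic L-DOPA, with its standard error, for immediate early transcription factors (left) and activity effectors (right), in the lesioned striatum (red, filled when the adjusted p is under 0.05) and in the unlesioned striatum (blue). In the left panel Nr4a2, Ier3 and Klf10 lie farthest to the right and Atf3 and Npas4 farthest to the left, and in the right panel Pim1 and Amigo3 lie farthest to the right.

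Feedback inhibitors of MAP kinase signaling split by gene. Dusp5, a nuclear phosphatase that binds ERK, was at 46.6, 40.4 and 34.9 CPM after acute and at 339, 293 and 354 CPM after chronic L-DOPA (3.01 ± 0.12, adjusted p = 5.09e-07; chr19:53603599-53616921, mm9). Dusp6, the ERK phosphatase of the cytoplasm, went from 240.2, 349.6 and 293 CPM to 102, 71.5 and 106 CPM (-1.66 ± 0.16, adjusted p = 0.00014; chr10:98725865-98730123, mm9). In neither gene did the groups overlap. Both changes differed from those of the unlesioned striatum, by 3.40 (adjusted p = 7.96e-08) and -1.19 (adjusted p = 0.00258). Dusp1, Dusp2 and Dusp4 rose, by 0.87, 1.98 and 1.42. In all, 7 of 16 genes of the list were higher and 5 were lower, against 13.1% and 11.7% of all genes. The lower count was 2 without acute library 2.

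Of 21 secreted growth factors and extracellular regulators tested, 10 were higher and 0 were lower after chronic L-DOPA. Besides Inhba, Fst, Areg, Serpinb2 and Timp1 these included Vegfa, the main angiogenic factor, which rose from 63.2, 60.1 and 76.2 CPM to 177, 181 and 197 CPM (1.48 ± 0.10, adjusted p = 1e-05), and Hbegf, another EGF receptor ligand, from between 33.2 and 34.6 CPM to between 67.0 and 80.4 CPM (1.07 ± 0.09, adjusted p = 6.21e-05). Both differed between the sides, by 1.72 and 1.45. Of 16 neuropeptide genes 6 were higher and 0 lower. Without a single library the count of lower genes became 1 in the growth factor list (without chronic 2 or chronic 3) and 1 in the neuropeptide list (without chronic 1). Trh, the precursor of thyrotropin-releasing hormone, was at 6.16, 8.06 and 7.17 CPM after acute and 35.5, 31.5 and 33.6 CPM after chronic L-DOPA (2.24 ± 0.11, adjusted p = 1.89e-06), and the secretogranin Scg2 rose from 507, 539 and 555 CPM to 1637, 1268 and 1276 CPM (1.39 ± 0.11, adjusted p = 3.09e-05). Penk and Tac1, 2 further peptide genes of MSNs, were not called, with Penk at 0.23 ± 0.11 (adjusted p = 0.149) and Tac1, which encodes substance P, at -0.06 ± 0.12 (adjusted p = 0.747).

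Among receptors and cAMP signaling genes of MSNs, 15 of 35 were higher and 4 lower, with a median log2 fold change of 0.24. Drd1a, which encodes D1R, was at 53.4, 71.6 and 67.5 CPM after acute and at 141, 105 and 158 CPM after chronic L-DOPA (1.07 ± 0.15, adjusted p = 0.000995; chr13:54146552-54151027, mm9). All of these values lay below those of the unlesioned striatum, 316 ± 14.6 CPM after acute and 335 ± 23.3 CPM after chronic L-DOPA (SD, n = 3). The same order was found for Chrm4, the muscarinic M4 receptor of D1R-bearing MSNs, at 36.4, 46.2 and 48.2 CPM after acute and 90.2, 69.5 and 102 CPM after chronic L-DOPA, against 146 ± 10.9 and 131 ± 3.01 CPM on the unlesioned side. Its transcript overlaps Mdk on the other strand. The transcription factor Isl1 and the transporter gene Slc35d3, both markers of D1R-bearing MSNs, rose by 1.15 ± 0.11 and 0.80 ± 0.16, so that 5 of 10 D1 markers were higher and 0 lower. The other 5 were not called and had log2 fold changes below 0, from -0.28 for Eya1 (adjusted p = 0.265) to -0.06 for Tac1 (adjusted p = 0.747). The change of Drd1a, Chrm4, Isl1 and Slc35d3 was more positive on the lesioned than on the unlesioned side, by 0.99, 1.16, 0.93 and 0.96 (highest adjusted p = 0.0122).

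Of 9 D2 markers 4 were lower and 0 higher, and 1 was higher without chronic library 2. Drd2 was at 440.3, 479 and 424 CPM after acute and at 327, 279.9 and 377 CPM after chronic L-DOPA (-0.45 ± 0.10, adjusted p = 0.0127), without overlap, but the call was lost without acute library 2 or chronic library 1 (highest adjusted p = 0.0643). The adenosine receptor gene Adora2a fell from 501, 479.7 and 491 CPM to 291, 294 and 399.6 CPM (-0.58 ± 0.11, adjusted p = 0.0062), and Gpr6 and Grik3 fell by 0.62 and 0.72. Only for Gpr6 and Grik3 was the change more negative than in the unlesioned striatum, by 0.53 and 0.90 (adjusted p = 0.0214 and 0.00202), and for Gpr6 not without acute library 2, acute unlesioned library 2 or chronic unlesioned library 1 (highest adjusted p = 0.0648). Outside the spiny neuron markers, the serotonin receptor Htr1b rose by 1.01 ± 0.12 and the kappa opioid receptor Oprk1, which binds dynorphin, by 0.93 ± 0.13, while the galanin receptor Galr2 fell by 1.25 ± 0.27. With the block 13 of the 35 receptor and cAMP genes had a more positive change in the lesioned striatum, against 6 without it, and the count without the block was 12 when chronic lesioned library 2 was left out and 12 in DESeq2.

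Genes that uncouple receptors from their signal were examined next. Of 19 genes for receptor kinases, arrestins and regulators of G protein signaling (RGS), 2 were higher and 2 lower, against 13.1% and 11.7% of all genes, with a median log2 fold change of -0.02. Rgs2 was at 217, 249 and 204 CPM after acute and at 421, 322 and 416 CPM after chronic L-DOPA (0.79 ± 0.11, adjusted p = 0.00127), and Rgs8 rose by 0.39 ± 0.08 while Rgs10 fell by 0.66 ± 0.12. The receptor kinase Grk6 stood at 51.4, 58.7 and 56.0 CPM and at 55.1, 51.2 and 57.1 CPM (-0.02 ± 0.08, adjusted p = 0.864). Arrb2, a beta-arrestin, was called at -0.36 ± 0.10, but not without acute library 2, acute library 3, chronic library 1 or chronic library 3 (highest adjusted p = 0.0975). With the block 3 genes had a more positive and 4 a more negative change on the lesioned than on the unlesioned side, against 2 and 0 without it. Without the block and without single libraries the counts ran from 1 to 2 and from 0 to 1, with 1 more positive change without acute lesioned 3, acute unlesioned 3, chronic lesioned 1 or chronic lesioned 3, and 1 more negative change without chronic lesioned 2, chronic lesioned 3 or chronic unlesioned 2.

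The study is concerned with phosphorylation of histone H3 at serine 28 beside the Polycomb mark H3K27me3. Of 27 genes for that pathway and for Polycomb proteins, 6 were higher and 4 lower, against 13.1% and 11.7% of all genes. Cbx7, a subunit of Polycomb repressive complex 1, fell from between 80.5 and 85.4 CPM to between 53.4 and 57.7 CPM (-0.56 ± 0.07, adjusted p = 0.000577). The H3K27 demethylase gene Kdm6b was at 230, 230 and 255 CPM after acute and at 320, 351 and 315 CPM after chronic L-DOPA (0.47 ± 0.08, adjusted p = 0.00316), without overlap. Both changes differed between the sides, by -0.57 for Cbx7 and by 0.67 for Kdm6b. Rps6ka5, the gene of the kinase Msk1, was not called at -0.06 ± 0.09 (adjusted p = 0.655), nor was Ppp1r1b at -0.16 ± 0.12 (adjusted p = 0.352). The counts of this list depended on single libraries, with 3 higher genes without acute library 1, acute library 3 or chronic library 1, and with 1 lower gene without acute library 1 or chronic library 1 and 2 without acute library 2 or chronic library 3.

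Of the genes that the study itself singled out, 18 were tested, of which 8 were higher and 7 lower. Some of them were chosen on these samples, so that their direction is no independent evidence. Lipg, an endothelial lipase gene, was at 4.29, 5.80 and 3.25 CPM after acute and at 26.1, 20.9 and 35.9 CPM after chronic L-DOPA (2.65 ± 0.23, adjusted p = 6.99e-05). Ppm1n, a protein phosphatase gene, had 33, 32 and 61 reads after acute and 1 read in each chronic library, a level at least 11.4-fold lower when the chronic side is set to 3 reads in its shallowest library. Hoxa2 had no read in any lesioned library. Klf4 was called at -0.37 ± 0.12, but not without acute library 1, acute library 3, chronic library 1 or chronic library 3 (highest adjusted p = 0.171), and Tbp, often used as a reference gene, had 0.27 ± 0.09 (adjusted p = 0.0511).

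Of 24 heat shock chaperone genes tested, 15 were lower and 1 was higher, with a median log2 fold change of -0.53. Dnajb1, the HSP40 co-chaperone, was at 1261, 994 and 797 CPM after acute and at 108, 249 and 121 CPM after chronic L-DOPA (-2.67 ± 0.30, adjusted p = 0.000346; chr8:86132074-86135802, mm9). The groups did not overlap, which was a condition for the largest falls. The unlesioned striatum was at 81.3 ± 26.7 CPM after acute and 56.0 ± 14.4 CPM after chronic L-DOPA (SD, n = 3), and the change differed between the sides (-2.13, adjusted p = 0.00984). The inducible HSP70 gene Hspa1a was at 40.5, 19.7 and 7.21 CPM and then at 1.59, 3.69 and 1.49 CPM (-3.31 ± 0.59, adjusted p = 0.00403). Its near-identical neighbor Hspa1b, whose reads cannot be told apart with certainty, had -3.16 ± 0.73 and lost its call without chronic library 1 or chronic library 3 (highest adjusted p = 0.0617). The difference between the sides was -1.39 for Hspa1a and -0.93 for Hspa1b (adjusted p = 0.549 and 0.763). With the block it was -1.54 and -1.16 (adjusted p = 0.00425 and 0.022).

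Further members of the heat shock list were lower with smaller changes. The HSP110 gene Hsph1 was at 820.1, 684 and 404 CPM after acute and 253, 351 and 268 CPM after chronic L-DOPA (-1.13 ± 0.23, adjusted p = 0.00687), and Hsf1, the factor that drives these genes, fell by 0.55 ± 0.10 (adjusted p = 0.00397). Cryab, a small heat shock protein that is also made by oligodendrocytes, fell by 1.52 ± 0.32. The summed level of the list was 5828, 5191 and 3991 CPM in acute and 2805, 3477 and 2801 CPM in chronic lesioned libraries, and between 2882 and 3697 CPM in acute and between 2441 and 2883 CPM in chronic unlesioned libraries. The number of lower genes was 9, 8 and 9 without acute library 2, chronic library 1 and chronic library 3. The count of higher genes, 1 with Hsf2 at 0.33, was 0 without any single library but chronic library 3. In the unlesioned striatum 4 of the 24 were lower and 0 higher. The lower count there was 0 without acute 1, acute 2 or chronic 3, 1 without chronic 1 and 14 without chronic 2. The change was more negative on the lesioned side for 2 genes, or for 6 with the block, which also gave 2 genes with a more positive change; without the block it was more negative for 1 gene when acute lesioned 1 or 2, chronic lesioned 3, acute unlesioned 2 or 3, or chronic unlesioned 1 was left out, and more positive for 1 without chronic lesioned 1.

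ER stress genes followed in part. Of 29 tested, 11 were lower and 1, the asparagine synthetase gene Asns, was higher, with a median of -0.27, and in the unlesioned striatum 6 were lower and 0 higher, a lower count that was 0 without acute 1, acute 2, chronic 1 or chronic 3 and 14 without chronic 2 of that side. Dnajb9, an ER co-chaperone that restrains the sensor IRE1, was at 180.5, 148 and 161 CPM after acute and at 42.5, 42.7 and 38.6 CPM after chronic L-DOPA (-1.98 ± 0.10, adjusted p = 1.47e-06; chr12:45306884-45311055, mm9). In the unlesioned striatum it stood at 32.1 ± 2.70 and 32.0 ± 3.13 CPM (SD, n = 3), and the difference between the sides was -1.98 (adjusted p = 7.38e-07). Ppp1r15a, which relieves the block on translation during stress, fell from 66.3, 78.5 and 85.7 CPM to 44.5, 27.8 and 48.0 CPM (-0.94 ± 0.17, adjusted p = 0.00452). Hsp90b1, the ER chaperone GRP94, fell from 429, 458 and 348 CPM to 195, 266 and 218 CPM (-0.86 ± 0.13, adjusted p = 0.00188). The related Hspa5 (BiP) had -0.60 ± 0.20 (adjusted p = 0.0531), with 679, 637 and 481 CPM after acute and 298, 529 and 359 CPM after chronic L-DOPA. Transcripts of Tulp2 and 1810014B01Rik overlap Ppp1r15a and Hsp90b1 on the other strand. The number of higher ER stress genes was 0 without acute 1, acute 2, chronic 1 or chronic 3 and 2 without chronic 2.

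**Figure D4:**
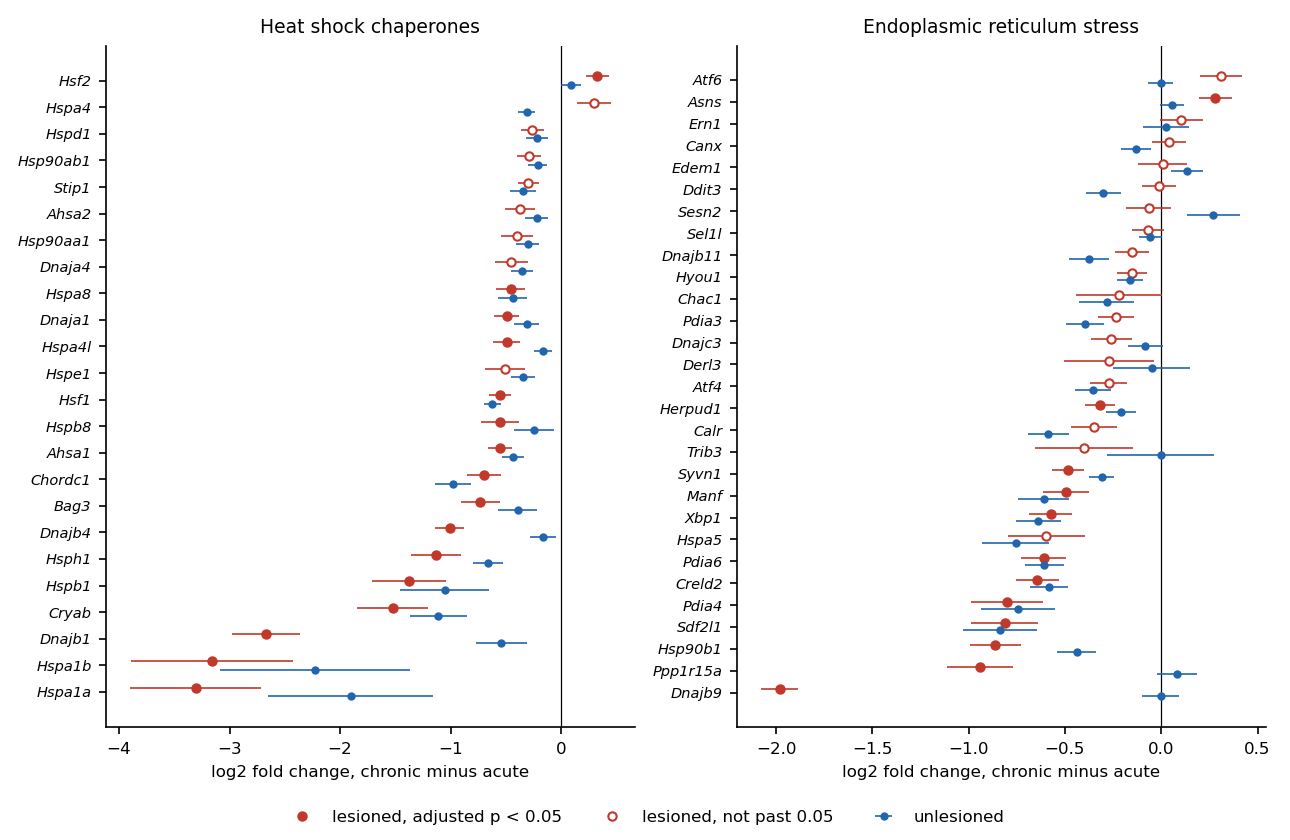
Log2 fold change from acute to chronic L-DOPA, with its standard error, for heat shock chaperones (left) and ER stress genes (right), in the lesioned striatum (red, filled when the adjusted p is under 0.05) and in the unlesioned striatum (blue). Hspa1a, Hspa1b and Dnajb1 lie farthest to the left in the left panel, and Dnajb9 in the right panel is far to the left in the lesioned striatum and at 0 in the unlesioned striatum.

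The ER stress element, searched for on both strands by its CCAAT and CCACG ends spaced by any bases of fixed number, was in 0.119% of all windows, in 0.149% of windows of tested genes and in 9 of the 26 ER stress genes with a window. Of these 9, 4 were lower after chronic L-DOPA, Hsp90b1, Creld2, Pdia6 and Syvn1, beside 11 of 29 in the whole list. The window of Hsp90b1 holds the element on each strand, beginning 212 and 107 bases before the start. The heat shock element, a run of alternating GAA and TTC triplets spaced by any pair of bases, was in 0.603% of all windows and in 4 of 19 heat shock genes with a window, Chordc1, Hspd1, Hspe1 and Hsph1. Of these 4, Chordc1 and Hsph1 were lower, beside 15 of 24 in the whole list. Among all genes with a window, the heat shock element was in 0.835% of higher and 0.805% of lower genes. Ppp1r15a, which fell, holds the cAMP response element 12 bases before its start, and its window is shown beside that of Hsp90b1, with the elements in capitals (RefSeq, GRCm38.p6).
Hsp90b1, chr10:86705395-86705694, minus strand: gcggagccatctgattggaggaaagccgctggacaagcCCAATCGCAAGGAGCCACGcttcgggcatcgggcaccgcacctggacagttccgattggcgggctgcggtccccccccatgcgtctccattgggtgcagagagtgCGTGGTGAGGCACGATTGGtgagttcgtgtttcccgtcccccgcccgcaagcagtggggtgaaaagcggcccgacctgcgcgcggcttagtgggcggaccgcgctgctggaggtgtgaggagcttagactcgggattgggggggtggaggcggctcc
Ppp1r15a, chr7:45526219-45526518, minus strand: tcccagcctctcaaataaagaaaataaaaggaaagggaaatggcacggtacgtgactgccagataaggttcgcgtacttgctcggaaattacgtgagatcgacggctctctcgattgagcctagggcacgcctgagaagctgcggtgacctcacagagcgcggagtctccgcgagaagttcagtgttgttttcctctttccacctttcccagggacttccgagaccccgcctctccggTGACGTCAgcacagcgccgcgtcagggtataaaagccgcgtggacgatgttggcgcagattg

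Oxidative and metal stress genes were mixed, with 2 of 20 higher and 7 lower, against 13.1% and 11.7% of all genes. Srxn1, the sulfiredoxin that repairs peroxiredoxins, was at 119.9, 133 and 128 CPM after acute and at 227, 244 and 239 CPM after chronic L-DOPA (0.90 ± 0.07, adjusted p = 4.59e-05), and Gclc, of glutathione synthesis, rose by 0.68 ± 0.08. Both rose more than in the unlesioned striatum, by 0.87 and 0.55. The metallothionein gene Mt2 fell from 89.3, 112 and 92.3 CPM to 53.7, 53.8 and 54.5 CPM (-0.86 ± 0.09, adjusted p = 0.000249). The lower count of the list was 4 without chronic library 1, and with the block 6 genes had a more negative change in the lesioned striatum, against 1 without it and between 0 and 2 without the block and single libraries. Glucocorticoid-responsive genes were also mixed, with 6 of 21 higher and 5 lower, against the same 13.1% and 11.7%. Tsc22d3 (GILZ) fell by 1.01 ± 0.12 (adjusted p = 0.000433), whereas Fkbp5, from the same class of targets, rose from 52.3, 73.0 and 56.4 CPM to 129, 78.1 and 110.0 CPM (0.81 ± 0.17, adjusted p = 0.00928), and Cdkn1a rose by 1.12 ± 0.07. The higher count was 3 without acute library 1 or chronic library 1, and the lower count was 3 without acute library 2 or chronic library 3 and 2 without chronic library 1. With the block 6 of the glucocorticoid genes, against 1, changed more negatively on the lesioned side, and without the block 2 did when acute unlesioned library 2 was left out.

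In bulk tissue, fewer cells of a type and less RNA per cell cannot be told apart. Of 20 oligodendrocyte and myelin genes tested, 18 were lower and 0 higher, with a median log2 fold change of -0.86. The lineage factor Olig2 was at 45.5, 51.4 and 40.6 CPM after acute and at 15.4, 26.6 and 24.7 CPM after chronic L-DOPA (-1.03 ± 0.18, adjusted p = 0.00309; chr16:91225795-91228922, mm9), without overlap. The abundant myelin gene Mbp was at 7643, 5701 and 4672 CPM and then at 2653, 4419 and 2984 CPM (-0.84 ± 0.21, adjusted p = 0.0183). Mbp, the connexin gene Gjb1 and the galactolipid enzyme gene Ugt8a each lost the call without acute library 1, chronic library 1 or chronic library 3, and Ugt8a also without acute library 2 (highest adjusted p = 0.0791, for Mbp).

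The number of lower oligodendrocyte genes was 5 without acute library 1, 7 without acute library 2, 5 without chronic library 1 and 5 without chronic library 3, and it was 9 in DESeq2. The summed level of the list ran over 19594, 14906 and 11846 CPM in acute and 6586, 11776 and 7672 CPM in chronic lesioned libraries. Acute library 3 and chronic library 2 nearly met. On the unlesioned side the sums were 13092, 12424 and 11691 CPM after acute and 8683, 12703 and 9192 CPM after chronic L-DOPA, and 2 of the 20 genes were lower there, or 17 without chronic unlesioned library 2 and 0 when any other was left out. No gene of the list differed in its change between the sides without the block, while with it 12 had a more negative change in the lesioned striatum. Without the block, 5 genes had a more negative change when chronic lesioned library 2 was left out, 1 when acute lesioned library 3 was left out, and 12 without a filter on low counts. Among oligodendrocyte precursor markers 2 of 12 were higher and 2 lower, against 13.1% and 11.7% of all genes, and the lower count was 4 without acute 3 or chronic 2 and 1 without chronic 3. Pdgfra, their defining receptor, had -0.08 ± 0.10 (adjusted p = 0.591), and Gpr17, of cells that are about to mature, fell by 1.02 ± 0.21 (adjusted p = 0.00805), whereas Sox11 rose by 0.90 ± 0.15 (adjusted p = 0.00258).

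Microglial markers were lower in 15 of 20 genes and higher in 0, with a median of -0.57. Tmem119, a marker particular to resident microglia, was at 37.8, 36.9 and 34.5 CPM after acute and at 18.7, 24.8 and 23.7 CPM after chronic L-DOPA (-0.70 ± 0.11, adjusted p = 0.00228). The complement gene C1qa fell from 78.0, 66.3 and 79.5 CPM to 39.4, 47.2 and 46.8 CPM (-0.75 ± 0.10, adjusted p = 0.00083), and Fcrls by 1.30 ± 0.25 (adjusted p = 0.00601). P2ry12, the ADP receptor of resting microglia, was not called at -0.26 ± 0.14 (adjusted p = 0.194). Both groups were apart in their summed level, at 1056, 880 and 975 CPM against 554, 713 and 724 CPM. In the unlesioned striatum the sums were between 784 and 818 CPM after acute and between 526 and 671 CPM after chronic L-DOPA, 5 of the 20 genes were lower (10 without chronic unlesioned library 2, 3 without chronic unlesioned library 1 and 0 when any other was left out), and no gene differed in its change between the sides, with or without the block. Among genes of activated microglia and inflammation, 6 of 13 were lower and 1 was higher. Lyz2, the lysozyme of macrophages and microglia, fell from 10.7, 16.02 and 10.4 CPM to 3.84, 3.91 and 3.56 CPM (-1.71 ± 0.18, adjusted p = 0.000239). The lower count of that list was 2 without chronic library 1.

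Of 18 astrocytic markers 8 were lower and 1, the receptor gene Fgfr3, was higher, with a median of -0.30. Gja1, the main astrocytic connexin, was at 219, 205 and 207 CPM after acute and at 126, 167 and 125 CPM after chronic L-DOPA (-0.59 ± 0.11, adjusted p = 0.00588). Slc1a2, the glutamate transporter GLT-1, was not called at 0.06 ± 0.11 (adjusted p = 0.728), and neither were Aqp4 at -0.44 ± 0.17 (adjusted p = 0.0806) or Gfap, the marker of reactive astrocytes, at 0.52 ± 0.22 (adjusted p = 0.115). Gfap stood at 241, 138 and 171 CPM after acute and at 188, 325 and 274 CPM after chronic L-DOPA, so that the groups overlapped, and all 6 values lay above its level on the unlesioned side, 77.7 ± 5.44 and 67.2 ± 23.2 CPM (SD, n = 3). Its change was more positive on the lesioned side by 0.73 without the block (adjusted p = 0.246) and by 0.77 with it (adjusted p = 0.0072). The number of lower astrocytic genes was 4 without acute library 1, 3 without chronic library 1 and 4 without chronic library 3, and the count of higher genes was 0 without acute 2, acute 3 or chronic 1. With the block 4 genes had a more negative change in the lesioned striatum, against 0 without it, or 1 when acute lesioned 3 or chronic lesioned 2 was left out. Of 19 reactive astrocyte genes 5 were lower and 1, Timp1, was higher, and the lower count was 3, 2, 1, 9 and 2 without acute 1, acute 2, chronic 1, chronic 2 and chronic 3, while 2 were higher without acute 1.

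**Figure D5:**
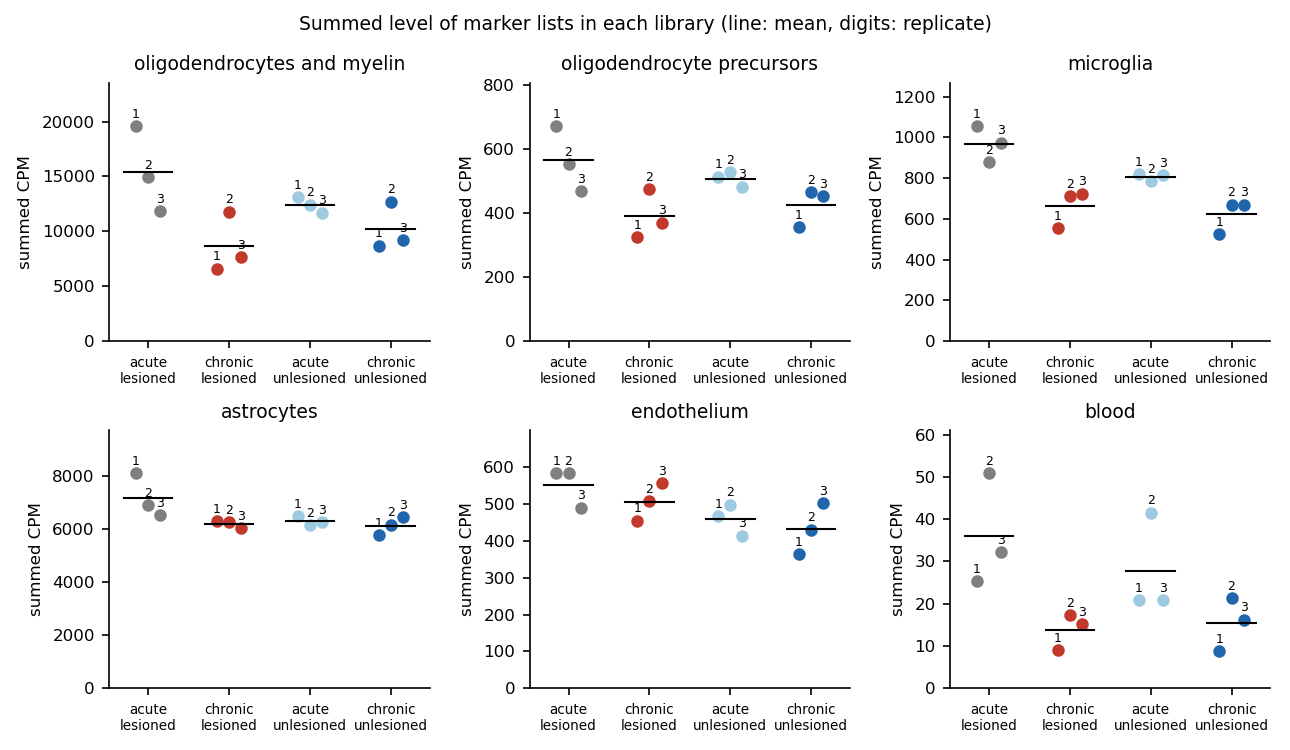
Summed CPM of 6 marker lists in each of the 12 libraries, by treatment and side, with a line at the mean of each group and the replicate number at each point. In the lesioned striatum the sums of oligodendrocyte and microglial markers are lower in each chronic library than in each acute library, and the blood genes follow the same order.

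Other cell types that the punches could hold were checked in the same way. Of 5 tested genes of red blood cells, globin genes among them, 4 were lower. The list summed to 25.3, 50.9 and 32.2 CPM after acute and 8.99, 17.4 and 15.2 CPM after chronic L-DOPA, and its part in the other results was not tested. The number of lower blood genes was 2 without acute library 2 or chronic library 1. Of 18 endothelial markers 1 was higher and 3 were lower, against 13.1% and 11.7% of all genes. The lower count was 1 without acute 1, 0 without acute 2 or chronic 1 and 5 without acute 3, and the higher count was 2 without acute 2. Of 12 pericyte and smooth muscle markers 1 was higher and 4 were lower, and the lower count was 2 without acute 1, acute 2 or chronic 1. The sums of endothelial markers overlapped, at 583, 583 and 489 CPM against 455, 507 and 555 CPM. Choroid plexus and ependymal markers summed to 38.5, 52.5 and 63.2 CPM after acute and 66.7, 71.3 and 63.8 CPM after chronic L-DOPA, without overlap. Of 8 tested 2 were higher, Clic6 at 1.07 and Kl at 1.81 (adjusted p = 0.00334 and 0.00587), and 0 were lower, with 3 higher without chronic library 3 and 3 lower without chronic library 2. The defining marker Ttr averaged 0.572 CPM after acute and 2.16 CPM after chronic L-DOPA (adjusted p = 0.0728), and the part of this list in the other results was not tested. Of 11 fibroblast and meningeal markers 2 were lower, Dcn at -1.10 and Igf2 at -0.88 (adjusted p = 0.018 and 0.00853), and 0 higher, a lower count that was 1 without acute 1, acute 2, chronic 1 or chronic 3 and 5 without chronic 2. The sums of these markers did not fall, at 363, 325 and 297 CPM after acute and 516, 345 and 309 CPM after chronic L-DOPA. In the unlesioned striatum the sums lay between 230 and 253 CPM after acute and between 362 and 662 CPM after chronic L-DOPA. Of 21 genes of the interferon response and MHC class I, 3 were lower and 0 higher, against 11.7% and 13.1% of all genes. The light chain B2m was among the 3 at -0.82 ± 0.15 (adjusted p = 0.00453). Without chronic library 2, in which the list summed to 274 CPM against 152 and 166 CPM in the other chronic libraries, 17 were lower. In the unlesioned striatum 8 of the 21 were lower and 0 higher, and the lower count was 15 without chronic unlesioned library 2, 1 without acute 3 or chronic 1 and 0 without acute 1, acute 2 or chronic 3. There all 21 had a log2 fold change below 0 (median -0.66), and 0 differed in their change between the sides, or 1 without chronic lesioned library 2.

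Genes of sterol synthesis were higher after chronic L-DOPA. Of 20 tested, 17 were higher and 0 lower, with a median log2 fold change of 0.62. Cyp51, the lanosterol demethylase, was at 53.1, 47.8 and 46.7 CPM after acute and at 91.2, 92.3 and 93.7 CPM after chronic L-DOPA (0.91 ± 0.08, adjusted p = 5.32e-05; chr5:4080674-4104697, mm9), without overlap. Sqle, the squalene epoxidase, rose from 30.1, 24.7 and 25.6 CPM to 47.9, 52.4 and 47.7 CPM (0.88 ± 0.10, adjusted p = 0.000304), and the isomerase gene Idi1, at a low level, from 1.15, 1.05 and 0.923 CPM to 2.63, 2.86 and 2.07 CPM (1.26 ± 0.23, adjusted p = 0.00417). Cyp51 in the unlesioned striatum was at 46.0 ± 2.19 CPM after acute and 41.5 ± 3.10 CPM after chronic L-DOPA (SD, n = 3), and its change differed between the sides by 1.06 (adjusted p = 2.55e-05). There 2 of the 20 genes were higher and 1 lower, or 0 and 0 when any unlesioned library other than chronic 2 was left out. For 15 of them the change was more positive and for 1 more negative on the lesioned side, against 3.60% and 1.495% of all genes. Between 15 and 17 genes were higher when single libraries were left out.

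Th and Pnmt, genes of catecholamine synthesis, rose as well. Th, which encodes tyrosine hydroxylase, was at 5.08, 6.85 and 8.49 CPM after acute and at 46.5, 39.4 and 52.8 CPM after chronic L-DOPA (2.77 ± 0.17, adjusted p = 6.56e-06; chr7:150078681-150085871, mm9), against 8.56 ± 1.20 and 8.79 ± 0.529 CPM on the unlesioned side (SD, n = 3), and its change differed between the sides by 2.73 (adjusted p = 6.3e-06). Pnmt, which converts noradrenaline to adrenaline, rose from 0.973, 0.331 and 1.01 CPM to 12.2, 10.2 and 10.5 CPM (3.75 ± 0.25, adjusted p = 1.22e-05). Ddc, the decarboxylase that turns L-DOPA into dopamine, was called at 0.86 ± 0.22, but not without acute library 2 or acute library 3 (highest adjusted p = 0.069). Interneuron markers were higher in 3 of 12 cases, Th, Npy and Sst, and lower in 5, against 13.1% and 11.7% of all genes. The lower count was 3 without acute library 2, acute library 3 or chronic library 1. The neuronal nitric oxide synthase Nos1 fell by 0.51 ± 0.08 (adjusted p = 0.00178), while Npy, which the same interneurons express, rose from 56.4, 59.6 and 59.5 CPM to 95.4, 91.7 and 110.2 CPM (0.76 ± 0.08, adjusted p = 0.000244).

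Among glutamate receptor and postsynaptic scaffold genes, 5 of 23 were higher and 2 lower, against 13.1% and 11.7% of all genes. The AMPA receptor subunit Gria1 was at 383, 403 and 384 CPM after acute and at 609.6, 490.5 and 535 CPM after chronic L-DOPA (0.48 ± 0.09, adjusted p = 0.00422), and the scaffold gene Dlg3 rose by 0.55 ± 0.09 (adjusted p = 0.00232), while the metabotropic receptor Grm3, which astrocytes also express, fell by 0.68 ± 0.11 (adjusted p = 0.00216). The higher count was 3 without acute library 2 or chronic library 1. Nptx1, the pentraxin partner of Nptx2, was at 123, 77.2 and 84.9 CPM after acute and at 596, 556 and 638 CPM after chronic L-DOPA (2.65 ± 0.16, adjusted p = 6.56e-06), and of 13 cortical neuron markers it was the 1 called higher, with 2 lower, Rorb at -0.55 (adjusted p = 0.0217) and Fezf2 at -0.82 (adjusted p = 0.0446). The lower count was 0 without acute library 1 or chronic library 3 and 1 without acute library 3, chronic library 1 or chronic library 2. Cell cycle genes were lower in 5 of 20 cases and higher in 1, against 11.7% and 13.1% of all genes. Ccnd2, a D-type cyclin, was at -1.22 ± 0.23 (adjusted p = 0.00502) and Clspn, of the replication checkpoint, at -1.35 ± 0.14 (adjusted p = 0.000217). The lower count of that list was 3 without acute library 1, 2 without acute library 2, acute library 3, chronic library 1 or chronic library 3, and 10 without chronic library 2.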

How the data were processed

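RNA-seq libraries (TruSeq kit, Genome Analyzer II) were mapped by the authors to mm9 with Genomatix software, and the deposited counts give the reads on each of 189660 transcripts, a read being counted on every transcript that it overlaps. The deposited table also holds a normalized expression signal per transcript, which the authors' software scaled by length and library size, and which served here to choose a transcript in the length-scaled alternative. The strand setting is not given in the sources used here. The authors used DESeq for 3 tables of comparisons, which hold fold changes and p-values and were not used, as were 36 further per-sample columns. Transcripts naming no gene (296, with 0.0485% of the counts) were left out, and each of 52169 symbols was represented by its transcript with the highest mean CPM.

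Counts were tested with edgeR 4.0.16 (R 4.3.3; limma 3.58.1), with TMM scaling, filterByExpr by group, the quasi-likelihood test and Benjamini-Hochberg adjustment over all genes tested. Contrasts were chronic minus acute within the lesioned libraries, within the unlesioned libraries, and the difference between both changes in all 12 libraries. CPM values were scaled over the 12 libraries. A floor is 3 counts, and floors cover counting error only. A permutation of 3 against 3 libraries cannot give a p below 0.10, so no such test was used. Same-numbered lesioned and unlesioned libraries deviated together (correlations across genes of 0.395, 0.340 and 0.208 in acute and 0.422, 0.485 and 0.147 in chronic mice). Pairs of different number ran from -0.305 to 0.0117 in acute and from -0.430 to 0.150 in chronic mice. Chronic lesioned 1 with chronic unlesioned 3, at 0.150, thus reached the level of the third chronic pair. The main test of the difference between the sides used no block. The number was a block only in an alternative, which is named where it is given. Fits were tested on simulated data for the lesioned contrast (19790 genes), where 81 of 93 genes with a log2 change of 1 and 107 of 107 with a log2 change of 2 were recovered, with 5 false calls among 193. The changed genes were few and had high mean counts. Counts were drawn independently for each gene and library, without outlying libraries or shifts shared by many genes. The 5 among 193 is therefore no error rate of the calls in the real data.

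Named genes were the 15 largest rises and falls among called genes with a mean of at least 1 CPM over the 6 lesioned libraries, no overlap of the groups and no clone, predicted or Rik name, then up to 5 called members of each of 33 lists, those with the largest change (2 where none passed), and the genes that the study names. The members and lists were chosen with earlier results of these data known. Named beyond that rule, after their values were seen, were Fos, Egr1, Arc, Nr4a1, Sik1, Vegfa, Hbegf, Penk, Tac1, Oprk1, Hsph1, Hsf1, Hsf2, Asns, Fgfr3, Mbp, Tmem119, P2ry12, Gfap, Aqp4, Hspa5, Grk6, Pdgfra, Fosl2, Junb, Egr2, Slc1a2, Eya1, Maff and Ttr. Alternatives were DESeq2 1.42.0 and its size factors, no count filter, all transcripts, another transcript per gene, all libraries in the fit, the replicate block, a GC and length correction, an adjusted p under 0.01 and leaving out each library. Some items are not reported here. Tables were written in Python 3.11.15 (pandas 2.3.3) and plots were drawn in matplotlib 3.10.9.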

Additional observations from a re-analysis of the deposited data

Results flagged for a closer look

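The change from acute to chronic L-DOPA differed between the lesioned and the unlesioned striatum in 1053 genes by the test of that difference in edgeR. Of the 181 named genes 66 were among them, and values below are the lesioned minus the unlesioned log2 fold change. Among rises and activity genes these were Inhba (5.16), Sstr2 (4.20), Epha2 (4.07), Pnmt (4.03), Areg (3.53), Dusp5 (3.40), Amigo3 (3.31), Pdyn (3.27), Lipg (3.03), Rasl11a (3.00), Pim1 (2.97), Fst (2.82), Th (2.73), Snx31 (2.67), Nptx1 (2.52), Ptgs2 (2.48), Dusp2 (2.34), Trh (2.22), Ier3 (1.89), Vegfa (1.72), Plk3 (1.64), Klf10 (1.57), Sik1 (1.53), Nptx2 (1.52), Hbegf (1.45), Dusp1 (1.17), Scg2 (1.06), Nr4a3 (0.91), Fosl2 (0.89), Egr2 (0.69), Junb (0.67) and Npy (0.66).

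Receptors and signaling genes with a more positive change were Chrm4 (1.16), Htr1b (1.15), Rgs2 (1.06), Drd1a (0.99), Slc35d3 (0.96), Isl1 (0.93), Dlg3 (0.56) and Rgs8 (0.47), besides Kdm6b (0.67). Sterol genes were Idi1 (1.68), Cyp51 (1.06) and Sqle (0.87), and other genes with a more positive change were Srxn1 (0.87), Mcm5 (0.72), Tagln (0.71) and Gclc (0.55). A more negative change was found for Gpx6 (-3.15), Orc1 (-2.92), Dnajb1 (-2.13), Heatr7b1 (-2.08), Dnajb9 (-1.98), Taf7 (-1.80), Rnf39 (-1.77), Galr2 (-1.65), Dusp6 (-1.19), Ccnd2 (-1.17), Clspn (-1.04), Ppp1r15a (-1.02), Grik3 (-0.90), S100a10 (-0.89), Cbx7 (-0.57), Nos1 (-0.57), Apoe (-0.56) and Gpr6 (-0.53).

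All 66 were also called with the replicate block, and 53 were called without each of the 12 libraries in turn. The other 13, Orc1, Rnf39, Ptgs2, Galr2, Rgs8, Ppp1r15a, Tagln, Ccnd2, Mcm5, Gpr6, Nos1, Fosl2 and Egr2, lost the call without at least 1 library, with highest adjusted p values from 0.0509 for Fosl2 to 0.137 for Ptgs2. The groups have 3 libraries each, so single libraries far from the others were not tested for.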

How the results depend on the processing

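The 4914 calls of the lesioned striatum became 2028 at an adjusted p under 0.01 and between 2715 and 6088 without single libraries, and the share of calls that were higher, 52.7%, ran from 48.9% to 61.2% over the settings. The number at least 1.5 fold lower was 549 at an adjusted p under 0.01 and between 657 and 1818 without single libraries. The 544 calls of the unlesioned striatum became 1218 in DESeq2, 2321 without a filter, 290 with the replicate block, 12 at an adjusted p under 0.01 and between 12 and 2247 without single libraries. The 1053 differences between the sides became 1913 without a filter, 2755 with the replicate block, 458 at an adjusted p under 0.01 and between 695 and 1637 without single libraries. At an adjusted p under 0.01 the lower genes numbered 7 in the heat shock list, 4 in the oligodendrocyte list, 7 in the microglia list and 2 in the astrocyte list, and without single libraries between 8 and 20, 5 and 20, 10 and 18, and 3 and 11. DESeq2 gave 9 lower oligodendrocyte genes. The cause of these moves was not tested.

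Acute and chronic lesioned libraries shared only their number (correlations of -0.0280, -0.134 and 0.0688), and with the replicate block 4397 genes were called there. Of 165 called named genes 124 were called in each of the 15 alternatives and 41 lost the call in at least 1, with 0 reversed; 33 were lost without chronic library 1 and 2 without chronic library 2. Of 840 comparisons of other list counts 134 moved by more than 1.5 times. With a GC and length trend removed, 2416 genes were higher and 1955 lower, against 2095 and 1898 of the same 14291 genes without the correction, and only this uncorrected count was added after seeing the data. Depth limits statements on genes under the floor of 3 counts.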

Other observations

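The groups below were picked with their values in view and belong to none of the lists. Of 16 core and linker histone genes with reads counted in these libraries, 12 were lower and 2 higher after chronic L-DOPA in the lesioned striatum, with a median log2 fold change of -1.05, and 8 of 15 were lower and 0 higher in the unlesioned striatum. The lower count was between 6 and 12 without single lesioned libraries (6 without acute 1, 7 without acute 2 or chronic 1), and in the unlesioned striatum it was 0 without acute 1 or chronic 3, 1 without acute 2 or chronic 1 and 2 without acute 3. Hist1h2be, which shares a same-strand overlap with Hist1h1e, was at 12.97, 11.3 and 8.44 CPM after acute and at 1.48, 4.35 and 2.77 CPM after chronic L-DOPA (-1.90 ± 0.30, adjusted p = 0.00201 in edgeR), and its change in the unlesioned striatum was -1.96 (adjusted p = 0.0185, and up to 0.0966 without single libraries). The difference between the sides was 0.06 for Hist1h2be (adjusted p = 0.967) and -3.62 for Hist4h4 (adjusted p = 0.0976, and 0.0671 with the replicate block).

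Cirbp, an RNA-binding protein induced by mild cooling, stood at 28.1, 29.4 and 39.7 CPM after acute and at 102, 73.4 and 93.4 CPM after chronic L-DOPA in the lesioned striatum (1.47 ± 0.15, adjusted p = 0.000171 in edgeR). It rose as well in the unlesioned striatum, by 1.41 (adjusted p = 0.00894, and 0.055 without acute unlesioned library 1), and the difference between the sides was 0.06 (adjusted p = 0.921). For all genes of the lesioned striatum the shares were 13.1% higher and 11.7% lower. Of 38 proteasome subunit genes 13 were higher and 1 lower in the lesioned striatum, with changes of the higher genes between 0.23 and 0.41, 0 were called in the unlesioned striatum, and for 2 the change was more positive on the lesioned side (3.60% of all genes). The higher count was 3 without acute library 1, 4 without acute 2 or chronic 1, 6 without acute 3 or chronic 3 and 14 without chronic 2. Of 74 ribosomal protein genes 25 were lower and 2 higher, 1 was lower in the unlesioned striatum, and for 6 the change was more negative on the lesioned side (1.495% of all genes). The lower count was between 12 and 24 without single lesioned libraries (14, 12 and 15 without acute 1, acute 2 and chronic 1), and the difference between the sides was called for between 1 and 7 genes. Of 69 protocadherin genes 28 were higher and 1 lower, with 10, 3, 13, 4, 39 and 16 higher without acute 1, 2 and 3 and chronic 1, 2 and 3; 0 were called in the unlesioned striatum, 1 had a more positive change on the lesioned side (15 without chronic lesioned library 2), and since clustered protocadherins share exons, a read can count for several of them.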
